A study of Mus musculus with 7 samples.

Results

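The loci described here hold 4 genes of the TNF receptor superfamily, Tnfrsf4, Tnfrsf18, Tnfrsf9 and Tnfrsf1b, in mouse regulatory T (Treg) cells. They were taken as 3 windows of mouse chromosome 4 (build mm9), with edges set by position. The genes themselves were chosen with earlier results of these data known. The window of Tnfrsf4 and Tnfrsf18 ran from 155340000 to 155460000, that of Tnfrsf9 from 150240000 to 150370000 and that of Tnfrsf1b from 144750000 to 144890000. They held 10 of the 10739 peak summits of the series, 5 of 5630 for IRF4 in wild-type (WT) cells, 5 of 4312 for IRF4 in p65KO cells and 0 of 797 for p65.

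The series mapped binding by chromatin immunoprecipitation sequencing (ChIP-seq), in which DNA bound by a factor is pulled down with an antibody and sequenced. All cells were splenic Treg cells on the C57BL/6 background, 5000000 per precipitation. IRF4 was mapped in WT cells (3 samples) and in p65KO cells, labelled RelA-deficient (2 samples), both given anti-CD3 and anti-CD28 over 48 h. RelA (p65) was mapped in WT cells (2 samples) given PMA and ionomycin over 30 min. The sources used here do not say how RelA was deleted, how old the mice were or whether replicates came from separate animals, and peak lists cannot be set against cell type markers. Each group came as 1 list, so replicate error cannot be given and no test was made. The score of a summit is the authors' −log10 significance of its peak, and its rank runs from 1 for the highest score of its list.

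These 4 members of the TNF receptor superfamily are surface receptors that bind ligands of the TNF family and recruit TRAF adaptors, through which they can activate NF-κB. Tnfrsf4 encodes OX40 and Tnfrsf18 encodes GITR, both abundant on Treg cells and raised by activation. Tnfrsf9 encodes the costimulatory receptor CD137, induced by T cell receptor signalling, and Tnfrsf1b encodes TNFR2, a receptor of TNF itself that is high on activated Treg cells. IRF4 is a transcription factor induced by T cell receptor signalling and needed for effector Treg cells; it binds DNA weakly alone and more firmly with AP-1 factors such as BATF, or with ETS factors. RelA is a subunit of NF-κB that enters the nucleus within minutes of stimulation.

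The promoters of the members are shown because they are the regulatory sequence of these genes that can be read here. They come from RefSeq on build GRCm38.p6 and cover 250 bases before to 50 bases after the gene start, so their positions cannot be set beside the mm9 summits, and whether a summit lies in one was not determined. All 4 genes had an entry, Tnfrsf9 with 2 starts. Searched on both strands were the κB consensus of NF-κB, GAAANNGAA (the core of interferon response elements), GGAANNGAA (an ETS and IRF composite), TGANTCA (AP-1) and GAAATGA (part of an AP-1 and IRF composite). GAAANNGAA and GGAANNGAA can overlap each other, and so can GAAATGA and TGANTCA. The 3 sequences with a match follow, 5′ to 3′ on the strand of the gene, with matches in capitals.

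Tnfrsf9, second start, chr4:150927749-150928048, plus strand: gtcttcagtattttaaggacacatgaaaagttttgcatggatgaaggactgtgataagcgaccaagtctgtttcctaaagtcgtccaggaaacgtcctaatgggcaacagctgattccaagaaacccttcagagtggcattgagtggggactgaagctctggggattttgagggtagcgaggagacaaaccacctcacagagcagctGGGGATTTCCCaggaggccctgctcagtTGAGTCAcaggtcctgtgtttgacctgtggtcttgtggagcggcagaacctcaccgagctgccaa

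Tnfrsf1b, chr4:145246821-145247120, minus strand: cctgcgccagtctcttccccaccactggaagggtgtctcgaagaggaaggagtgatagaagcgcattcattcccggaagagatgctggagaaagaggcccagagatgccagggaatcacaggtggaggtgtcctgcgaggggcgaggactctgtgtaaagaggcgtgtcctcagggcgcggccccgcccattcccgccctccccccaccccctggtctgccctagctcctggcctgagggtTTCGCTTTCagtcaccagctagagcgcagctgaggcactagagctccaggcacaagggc

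Tnfrsf4, chr4:156013445-156013744, plus strand: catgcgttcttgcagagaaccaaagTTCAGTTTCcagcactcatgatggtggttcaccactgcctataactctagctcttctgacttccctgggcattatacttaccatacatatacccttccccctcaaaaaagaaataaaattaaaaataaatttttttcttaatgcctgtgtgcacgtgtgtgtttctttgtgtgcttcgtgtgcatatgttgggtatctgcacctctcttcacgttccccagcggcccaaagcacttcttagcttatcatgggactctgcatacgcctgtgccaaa

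The second Tnfrsf9 promoter held a κB match at bases 208 to 217, overlapped by another at bases 209 to 218, and an AP-1 match at bases 236 to 242. The Tnfrsf1b promoter held GAAANNGAA on the opposite strand at bases 242 to 250, and the Tnfrsf4 promoter at bases 26 to 34. The Tnfrsf18 promoter and the first Tnfrsf9 promoter held none of the 5 motifs. Of all 32851 promoters in the table, 8.46% held a κB match, 8.56% GAAANNGAA, 8.24% GGAANNGAA, 7.81% TGANTCA and 5.45% GAAATGA. The rest of the family was counted by gene, with a match at any start enough, so its counts and these shares over promoters are unlike measures. Among 18 of 21 other receptors of the family that had an entry, 2 held a κB match (Tnfrsf8 and Tnfrsf25), 2 GAAANNGAA (Tnfrsf14 and Tnfrsf17) and 2 TGANTCA (Tnfrsf8 and Fas). A further 1 held GGAANNGAA (Eda2r), and 0 held GAAATGA. Tnfrsf11b, Tnfrsf10b and Cd40 had no entry.

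All 3 windows held IRF4 in both genotypes and none held p65. The windows of Tnfrsf4 with Tnfrsf18 and of Tnfrsf1b each had 2 WT and 2 p65KO IRF4 summits, and that of Tnfrsf9 had 1 of each. As background, the placed chromosomes were divided into 20212 tiles of 130 kb, the mean length of the windows. A WT IRF4 summit lay in 17.0% of the tiles, a p65KO IRF4 summit in 14.3% and both in 12.9%. A p65 summit lay in 1.53% of all tiles, and in 5.598% of the 2608 with both IRF4 lists. The tiles include regions without genes and the windows were placed on genes. An empty tile was the common case for p65, whose list is also the shortest, and the share for windows placed on genes was not computed.

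Both genotypes shared every position: all 5 WT summits met a p65KO partner inside 200 bp, and all 5 p65KO summits a WT one. Over the whole lists 64.4% of WT and 84.1% of p65KO summits had such a partner. Summits high in the WT list had one more often. In the deciles of the WT list in which the 5 summits ranked, from the strongest to the weakest of the 5, the shares with a partner were 99.5%, 95.6%, 81.3%, 69.8% and 48.0%. The summits of a pair lay 1, 12, 13, 41 and 87 bp apart, with a median of 13 bp against 17 bp over all 3625 pairs. A p65 summit lay within 200 bp of 0 of the 10 IRF4 summits of the windows, against 4.06% of the 9942 summits of both IRF4 lists. The 10 summits are 5 sites, each counted in both lists. Their 0 restates that the windows held no p65 summit, and with so low a share it is the common case.

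**Figure D1:**
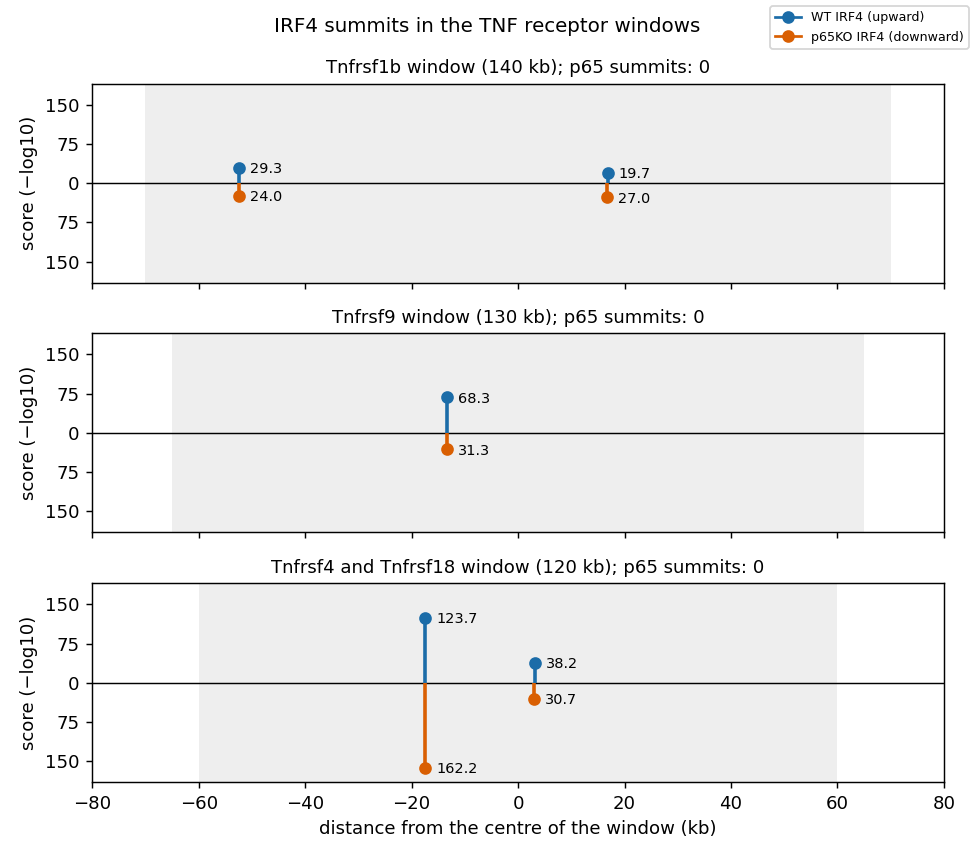
IRF4 summits in each window, by distance from the window's centre in kb (horizontal axis) and score on the −log10 scale (vertical axis), with WT drawn upward and p65KO downward; grey marks the window. Every WT summit faces a p65KO summit, and the scores run from 19.7 to 123.7 in WT and from 24.0 to 162.2 in p65KO cells.

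The strongest summit of the 3 windows, in both genotypes, lay in the window of Tnfrsf4 and Tnfrsf18. In WT cells it was at 155382541 with a score of 123.7, rank 159 of 5630, within the highest 2.82% of the list. In p65KO cells it was 13 bp away at 155382554 with a score of 162.2, rank 54 of 4312, within the highest 1.25%. On chromosome 4 it ranked 10 of 302 in the WT and 4 of 223 in the p65KO list. The IRF4 signal at this site was thus called in cells labelled RelA-deficient with a score 1.31 times that in WT cells. Among all pairs 82.8% had a lower ratio of p65KO to WT score, and in its own decile of the WT list 531 of 560 pairs (94.8%) did. In that decile 7.46% of the 563 WT summits had a p65 summit within 200 bp, and this one did not.

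The second summit of that window was weaker and lay 20554 bp to the right in WT cells, at 155403095. It scored 38.2 there (rank 1717, 30.5% down the list) and 30.7 in p65KO cells, at 155403054 (rank 1859, 43.1% down). Its ratio of 0.804 was near the 0.824 that was the median in its decile of the WT list. The p65KO score was thus above the WT score at the stronger site and below it at the weaker one. A p65KO score below the WT score was the more common case, in 57.8% of all pairs. OX40 and GITR are encoded side by side, with no protein-coding gene between them and Sdf4 and Ttll10 on either side in the RefSeq order, so neither summit can be given to one receptor by position alone. The nearest IRF4 summits outside the window were far off, 457.1 kb to the left of its edge and 115.1 kb to the right in both genotypes.

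The single site of the Tnfrsf9 window had the largest relative difference in score among the 5. The WT summit was at 150291615 with a score of 68.3, rank 671, 11.9% down the list. The p65KO summit was 1 bp away at 150291616 with a score of 31.3, rank 1816, 42.1% down. The p65KO score was 0.459 of the WT score, the only 1 of the 5 at or under 0.5. Of all 3625 pairs 7.56% were at or under 0.5 and 2.07% had at least 2 times the WT score. These shares leave out WT summits without a p65KO partner, which have no ratio. A partner was found for 64.4% of all WT summits and for 95.6% of those in the decile of this summit. In the same decile of the WT list, where the median ratio was 0.819 (interquartile range 0.618 to 1.04), 60 of 538 pairs (11.2%) had a lower one. Whether it exceeds the variation between replicates cannot be told, because the lists give no values per sample.

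The nearest IRF4 summit to the left of the Tnfrsf9 window, 57.1 kb from its edge in WT cells, scored 51.8 in WT and 47.6 in p65KO cells. To the right, the WT list had a summit at 150412041, 42.0 kb beyond the edge with a score of 29.6. The p65KO list had none until 151565470, 1195 kb beyond the edge. The WT list had no further summit up to that position either, so only the summit at 150412041 set the lists apart here. It ranked 2441 of 5630 in the WT list, and in its decile 69.8% of the WT summits had a p65KO partner. In RefSeq, Tnfrsf9 stands between Park7 and Per3, and no other receptor gene of the family is next to it.

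The Tnfrsf1b window held the weakest sites of the 3 windows in both genotypes. The WT summit at 144767643 scored 29.3 (rank 2473, 43.9% down the list), and the p65KO summit at 144767655 scored 24.0 (rank 2489, 57.7% down). These ranks were close, and the percents differ mainly because the lists hold 5630 and 4312 summits. The WT summit at 144836866 scored 19.7 (rank 3866, 68.7% down), and its partner at 144836779 scored 27.0 (rank 2180, 50.6% down). The ratios were 0.818 and 1.37. The first p65KO score was below and the second above the WT score, so the order of the 2 sites by score was reversed between the genotypes. The lowest WT summit of the 3 windows thus had the highest ratio of the 5. That ratio was higher than in 86.2% of all pairs and in 81.1% of the pairs of its decile, where the median was 1.04. Only 270 of the 562 WT summits of that decile (48.0%) had a p65KO partner. The median covers these alone and leaves out weak WT sites not called in p65KO cells.

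Just beyond the right edge of the Tnfrsf1b window, and chosen after their values were seen, lay 4 further IRF4 sites, each with summits of both genotypes no more than 15 bp apart. In WT cells they were 10.95, 22.2, 38.6 and 42.2 kb past the edge, with scores of 42.1, 22.5, 25.8 and 59.2. The p65KO scores at these sites were 30.6, 25.05, 17.1 and 68.6. The first and the last of the 4 scored above both sites inside the window in each genotype. In RefSeq the gene next to Tnfrsf1b on one side is Tnfrsf8, which encodes CD30, another receptor of the family, and on the other Dhrs3. Which gene these sites lie in was not determined.

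Across the 5 pairs the p65KO score was below the WT score in 3 (Tnfrsf9, 1 of the 2 sites of Tnfrsf4 and Tnfrsf18, and 1 of the 2 of Tnfrsf1b) and above it in 2. Over all pairs 57.8% were below. The median ratio was 0.818 in the windows and 0.925 over all pairs (interquartile range 0.706 to 1.19). The rank percent of the p65KO summit minus that of its WT partner had a median of 12.6 in the windows. Over all pairs the median was 3.60 (interquartile range -4.74 to 17.2), with lists of unlike length. Ranks do not depend on the scale of the scores, and among the 3625 pairs alone the 5 WT ranks were 157, 666, 1616, 2203 and 3011. The p65KO ranks of the same pairs were 54, 1774, 1813, 2378 and 2106. The first stayed near the top, and the other 4 lay between 1774 and 2378 in the p65KO order. The site of Tnfrsf9 was far above that of the weaker Tnfrsf4 and Tnfrsf18 summit in WT cells, with 68.3 against 38.2, and close to it in p65KO cells, with 31.3 against 30.7.

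**Figure D2:**
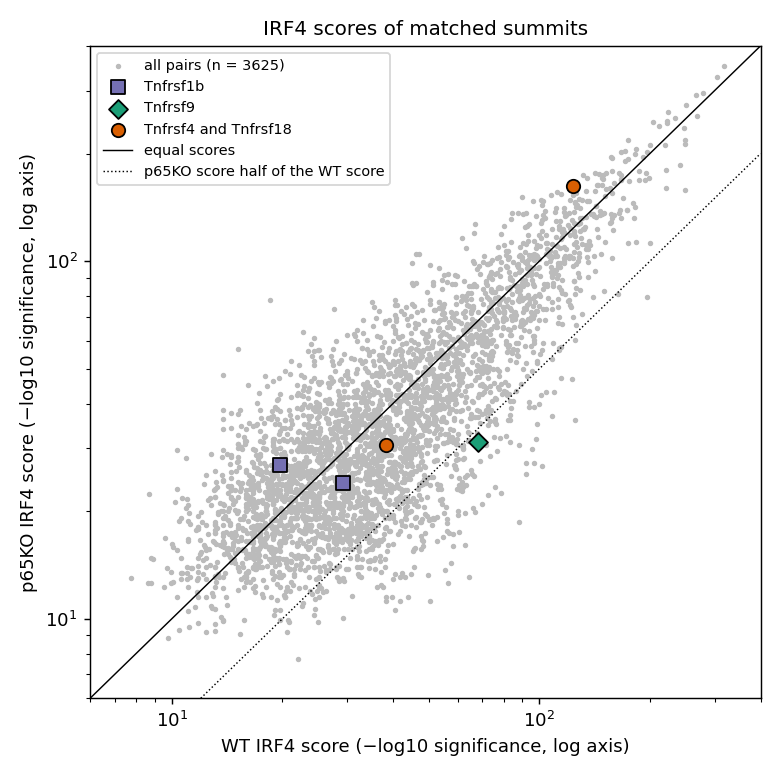
Score of each matched IRF4 summit in WT (horizontal axis) and p65KO cells (vertical axis), −log10 significance on log axes; grey points are all 3625 pairs and large symbols the 5 pairs of the windows. The Tnfrsf9 pair (68.3 and 31.3) lies under the dotted line of a 0.5 ratio, and the other 4 lie on either side of the line of equal scores.

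**Figure D3:**
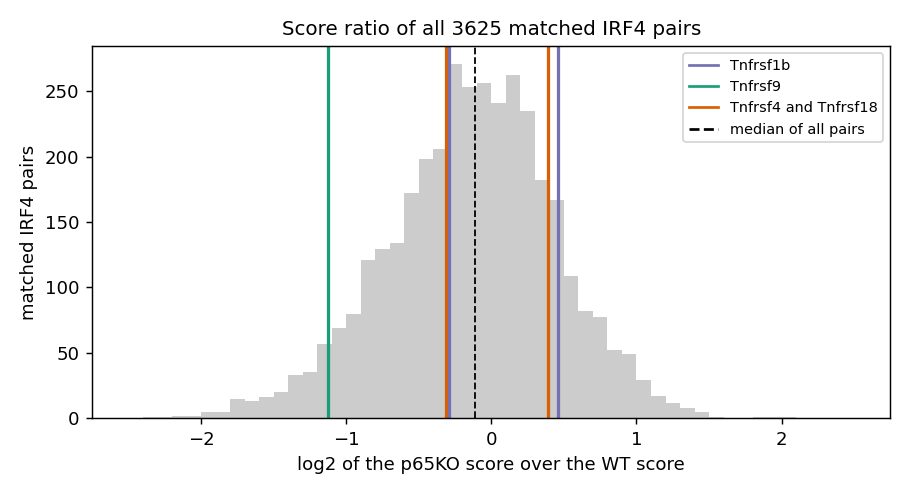
Histogram of the log2 ratio of p65KO to WT score over 3625 pairs (horizontal axis, log2 units; vertical axis, pairs), with a line for each of the 5 pairs of the windows and a dashed line at the median. The lines stand at -1.12 (Tnfrsf9), -0.31 and 0.39 (Tnfrsf4 and Tnfrsf18), and -0.29 and 0.46 (Tnfrsf1b).

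The 3 windows span 10.71 Mb of chromosome 4, from Tnfrsf1b to Tnfrsf4 and Tnfrsf18, and p65 was distributed unevenly along it. The stretch held 46 of the 63 p65 summits of the chromosome, all of them between the Tnfrsf1b and Tnfrsf9 windows, from 145029922 to 147169484. No p65 summit of the chromosome lay to the right of that last position, where 16 WT and 15 p65KO IRF4 summits lay. The p65 scores in the stretch were low, with a median of 6.15 and a highest of 17.2, against a median of 9.61 over the p65 list. Of the 46, 4 had a WT and 4 a p65KO IRF4 summit within 200 bp. The span of this run held only 5 WT and 4 p65KO IRF4 summits, so most of them lay beside a p65 summit. Over both IRF4 lists 4.06% of summits did. At 146126341, a site chosen after its values were seen, a p65KO IRF4 summit and a p65 summit shared the same base. Per the peak names no input library was used, and what the signal in this run comes from was not tested. The Tnfrsf1b window lay to the left of this run of p65 summits and the other 2 windows to the right.

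The nearest p65 summit to the Tnfrsf1b window was the first of this run, 139.9 kb from the edge with a score of 9.37. It was 193.1 kb from the nearer WT IRF4 summit of that window and 262.3 kb from the other. The nearest to the Tnfrsf9 summit was 3122 kb away, and to the strongest summit of Tnfrsf4 and Tnfrsf18 8213 kb away. The p65 list had the looser q cut-off, 0.05 against 1e-06 for IRF4. Because p65 was mapped 30 min after PMA and ionomycin and IRF4 48 h after receptor stimulation, these lists do not show whether RelA was bound at the receptor loci in the cells used for IRF4.

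Within the stretch the receptor sites ranged from near the top to past the middle of each IRF4 list. The strongest site of Tnfrsf4 and Tnfrsf18 was second of 26 in WT cells, after 147408134 with a score of 184, and first of 24 in p65KO cells, where the summit beside 147408134 scored 113. The Tnfrsf9 summit ranked 5 of 26 in WT and 10 of 24 in p65KO cells. The Tnfrsf1b summits ranked 14 and 17 in WT and 16 and 13 in p65KO cells.

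**Figure D4:**
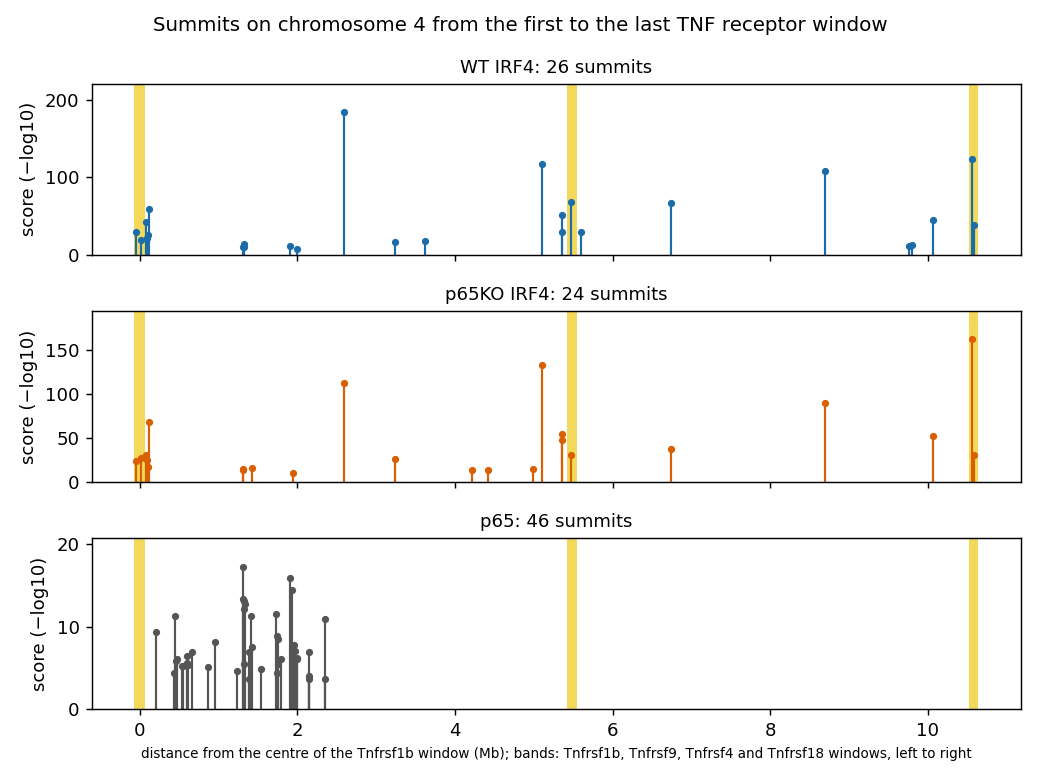
Summits of each list along chromosome 4, by distance in Mb from the centre of the Tnfrsf1b window (horizontal axis) and score on the −log10 scale (vertical axis, a different range in each panel); bands mark the 3 windows. The 46 p65 summits lie between the first and second band and none in a band, and all 3 bands hold IRF4 summits of both genotypes.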

How the data were processed

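ChIP-seq of IRF4 and p65 in Treg cells was deposited by the authors as 3 lists of 1 bp peak summits on mm9, 1 list per group, each with a −log10 significance score. The sources used here do not say whether it is of a p-value or a q-value. The submitters' processing notes name Subread, featureCounts and MACS2 2.1.0. Per the peak names, peaks were called without an input library, so signal that arises without the antibody is not subtracted. Read depth is unknown. Positions were made 1-based. A partner is a summit of the other list within 200 bp, and pairs are mutual nearest summits. Groups were taken from the sample titles.

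Members, lists and motifs were chosen with earlier results of these data known. Every summit in the windows was named; those outside were the nearest to a window's edge, the top of the stretch or marked as chosen later. No test was made. The matching was tested on simulated data. Alternatives were other matching distances, wider and narrower windows, thinned and shortened lists, and other ranks. No mm9 genome or annotation was used; RefSeq on GRCm38.p6 gave gene order and promoters. Python 3.11.15, numpy 2.4.6, pandas 2.3.3 and matplotlib 3.10.9 were used.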

Additional observations from a re-analysis of the deposited data

How the results depend on the processing

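Of 29 alternatives over 8 results, 26 left the count within 1.5 times or the median rank within its counting interval. Many of these could not have come out otherwise, so 26 is not a measure of how stable the results are. With the windows widened by 50 kb on each side there were 10 WT and 9 p65KO IRF4 summits in place of 5 and 5, from the 4 paired sites beyond Tnfrsf1b and the WT site beyond Tnfrsf9. Among summits at or above the median score of their list there were 3 p65KO IRF4 summits, both of the Tnfrsf1b window falling under it, and 4 WT summits. The count of p65 summits was 0 with wider windows too, and all 5 pairs held from 100 bp to 1 kb. Both were fixed by the positions: no pair was more than 87 bp apart, and the nearest p65 summit lay 139.9 kb from an edge. A count of 0 could not fall with narrower windows or shorter lists. Cutting both IRF4 lists to the shorter length left the p65KO list as it was. No paired analysis was possible because each group came as 1 list without values per replicate. For the same reason no replicate could be left out. List lengths and scores depend on read depth, which is unknown, and the IRF4 lists rest on 3 and 2 samples.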
